A study of Arabidopsis thaliana with 20 samples.

Results

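Polycomb repressive complex 2 (PRC2) is the enzyme complex that trimethylates lysine 27 of histone H3 (H3K27me3), a mark of stably silenced genes. The RNA levels of 9 genes were followed: the 8 genes of its core subunits and LHP1, a protein that binds the mark. They were chosen by name from 27445 nuclear genes, and all 9 are among the features counted.

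In Arabidopsis each PRC2 complex is built from a catalytic subunit (CLF, SWN or MEA), a zinc finger subunit (EMF2, VRN2 or FIS2) and the WD40 proteins FIE and MSI1. Complexes with EMF2 keep flowering and floral organ genes silent in vegetative tissue, complexes with VRN2 hold FLC silent after cold, and complexes with FIS2 and MEA act in the female gametophyte and the endosperm. LHP1 reads the mark and is needed to keep many of the same target genes silent.

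The study asked how genes are expressed in meiocytes and seedlings of mutants of DNA polymerase epsilon and of SUVH2 and SUVH9. Polyadenylated RNA was sequenced in 20 libraries: 5 genotypes in 2 tissues gave 10 groups of 2 libraries. Meiocytes are the cells that enter meiosis, and they were isolated from floral buds of stage 9 to 10, with 300 to 400 meiocyte masses pooled per replicate. The seedlings were 20 days old, and 4 to 5 plants were pooled per replicate. The genotypes were wild type (WT), pol2a-1 and pol2a-2, suvh2suvh9, and pol2a-1suvh2suvh9, called the triple mutant here. The POL2A product is the catalytic part of DNA polymerase epsilon, a replicative polymerase, and SUVH2 and SUVH9 bind methylated DNA and bring in RNA-directed DNA methylation. The libraries titled pol2a-2 carry pol2a-1 in their genotype label and were kept as a group by title. The sources used here do not give the lesion of each allele. Groups share growth at 20 degrees C and 16 h of light.

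Library totals were 11.9e6 to 20.9e6 counts in meiocytes and 11.9e6 to 34.5e6 in seedlings. Levels are given as CPM, the count per 1e6 counts of the library, and 3 counts, taken as the floor, were worth 0.143 to 0.251 CPM in meiocytes and 0.0871 to 0.252 CPM in seedlings. All 12 meiocyte markers listed, such as DMC1 and ASY1, were higher in every meiocyte library than in any seedling library, with a summed level of 3880 to 4650 against 41.0 to 71.5 CPM. Leaf photosynthesis markers summed to 185 to 962 CPM in meiocytes and to 42400 to 66200 CPM in seedlings. Markers of the tapetum, the anther layer around the meiocytes, summed to 116 to 342 CPM in meiocytes and to 4.18 to 35.4 CPM in seedlings. Chloroplast-encoded RNA took 0.0215 to 0.0443% of the counts in the 4 seedling libraries of suvh2suvh9 and the triple mutant and 2.11 to 2.42% in the other 6 seedling libraries, and mitochondrial RNA 0.00157 to 0.00276% against 0.00636 to 0.00801%. These 4 libraries stood apart as whole groups, so a difference in preparation and one of genotype cannot be told apart. SUVH9 had 0 or 1 count in each of the 4 meiocyte libraries of suvh2suvh9 and the triple mutant, against 137 and 226 counts in WT. In seedlings of these 2 mutants it had 12 to 31 counts, against 1166 and 800 in WT. SUVH2 RNA was lower but still present in their meiocytes, at 8.92 to 15.5 CPM against 41.5 and 38.4 CPM in WT. Among meiocytes, POL2A was at 236 and 165 CPM in WT, at 89.8 and 89.5 in pol2a-1, at 155 and 156 in pol2a-2 and at 65.6 and 67.7 in the triple mutant. In the seedling libraries titled pol2a-2 it was at 30.6 and 65.9 CPM, below and above the WT levels of 47.2 and 41.1 CPM. Seedlings of pol2a-1 had 28.5 and 29.3 CPM of POL2A and those of the triple mutant 36.3 and 39.6 CPM. Neither difference from WT passed the test described below (adjusted p = 0.328 and 0.677, edgeR).

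Where each gene starts is shown for the members whose RNA level separated the tissues, because a start region is where transcription factors could act on them. The stretches are the 250 bases before the annotated gene start in RefSeq's TAIR10.1, on the strand of the gene, and capitals mark a match to a motif searched in them and in the 50 bases that follow. SWN (AT4G02020) lies on chromosome 4 from 886580 to 891987 on the plus strand, and its stretch is chr4:886330-886579. FIS2 (AT2G35670) lies on chromosome 2 from 14992565 to 14996756 on the plus strand, and its stretch is chr2:14992315-14992564. FIE (AT3G20740) lies on chromosome 3 from 7248809 to 7252452 on the minus strand, and its stretch is chr3:7252453-7252702. No other annotated gene lies inside these stretches.
SWN: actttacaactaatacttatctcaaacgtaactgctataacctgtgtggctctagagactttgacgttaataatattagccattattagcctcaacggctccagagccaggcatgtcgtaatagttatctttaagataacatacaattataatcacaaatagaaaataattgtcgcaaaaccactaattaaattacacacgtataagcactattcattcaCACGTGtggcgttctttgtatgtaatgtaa
FIS2: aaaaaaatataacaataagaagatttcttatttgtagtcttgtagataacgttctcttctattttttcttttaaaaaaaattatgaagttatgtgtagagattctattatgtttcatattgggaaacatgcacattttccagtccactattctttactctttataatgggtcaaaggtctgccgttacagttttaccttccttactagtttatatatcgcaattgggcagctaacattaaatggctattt
FIE: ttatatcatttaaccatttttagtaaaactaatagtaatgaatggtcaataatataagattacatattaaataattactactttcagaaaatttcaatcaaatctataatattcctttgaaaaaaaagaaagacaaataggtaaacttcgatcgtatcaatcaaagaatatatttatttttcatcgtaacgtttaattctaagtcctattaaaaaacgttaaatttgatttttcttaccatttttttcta

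The capitals in SWN are a G-box, CACGTG, from 30 to 25 bases before the start, a motif found in 7.68% of 27443 windows of 300 bases around the starts of protein-coding genes. The stretches of FIS2 and FIE hold no match. FIE has 20.4% G and C in its stretch, under the 22% at the 5th percentile of all genes, and SWN with 33.6% and FIS2 with 28.8% lie near the median of 31.2%. The 250 bases before CLF overlap the opposite-strand gene AT2G23370, so only its motif match is shown, chr2:9955115-9955140 on the plus strand, from a gene (AT2G23380) that spans 9955092 to 9960386.
CLF: ccaaacaaaTAGGGTTTaagagccca

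The capitals in CLF are a telobox, AAACCCTA, read on the other strand as TAGGGTTT, from base 33 to base 40 after the start, a motif found in 6.22% of the windows. VRN2 and MSI1 each hold 2 copies of site II, TGGGCC on either strand, found in 15.5% of the windows. None of the 9 members holds TTTCCCGC, TTTGGCGC, TTCCCGCC or TTTCGCGC, the forms of the E2F site searched on both strands. A match is a description of the letters and does not show binding.

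The catalytic subunit CLF was several times higher in meiocytes than in seedlings in all 5 genotypes. CLF, the main H3K27 methyltransferase of vegetative development, had 77.1 and 75.1 CPM in the WT meiocyte libraries against 16.0 and 16.9 CPM in WT seedlings. Over all genotypes it ranged from 65.5 to 83.7 CPM in meiocytes (median 75.7) and from 11.9 to 21.8 CPM in seedlings (median 17.7). No seedling library reached any meiocyte library. In WT the difference was 1.90 ± 0.19 on the log2 scale (± standard error, n = 2 per group), a 3.74-fold higher level (adjusted p = 1.3e-07; here and below from edgeR's quasi-likelihood test, two-sided, with p-values adjusted over all features by the method of Benjamini and Hochberg). It stayed called without any 1 library (log2 1.84 to 1.96), and within the mutants it was 1.48 to 2.24. Exons of opposite-strand neighbours cover 2.28% of the CLF exons. In bulk samples a larger share of cells that express a gene and more RNA per cell cannot be told apart.

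SWN, the partly redundant partner of CLF, was also higher in meiocytes, but its replicates lay far apart. The WT meiocyte libraries held 206 and 86.0 CPM and the WT seedling libraries 40.3 and 35.9 CPM. Across genotypes meiocyte libraries ranged from 64.2 to 206 CPM (median 83.3) and seedling libraries from 9.49 to 40.3 CPM (median 32.7), without overlap. The WT difference was 1.59 ± 0.46 on the log2 scale (adjusted p = 0.00515, edgeR), and without replicate 1 of WT meiocytes it was 0.94 and no longer called (adjusted p = 0.109, edgeR). Within the triple mutant it was 0.73 ± 0.46 (adjusted p = 0.156, edgeR). The WT meiocyte replicates differed 2.40-fold, further apart than in all but 3.36% of 12367 genes of at least 5 CPM, and the pol2a-2 seedling replicates 4.07-fold, at 9.49 and 38.9 CPM, further apart than in all but 0.734% of 14721 genes. The median gene differed 1.27-fold and 1.21-fold between those replicates.

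MEA (AT1G02580, chromosome 1 from 544733 to 549202 on the plus strand), the catalytic subunit of the seed complex, was near or under the floor. It had 0 counts in 7 of 10 meiocyte libraries, with 10 counts in pol2a-2 replicate 1 and 6 and 15 counts in the triple mutant. In seedlings it had 0 counts in 5 of 10 libraries, and its highest count was 9, in WT replicate 2. It stayed in the meiocyte fit only through the libraries where it was counted, was not kept in the seedling fit, and no fold is given for it.

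Among the zinc finger subunits, FIS2 was low but clearly measured in meiocytes and close to the floor in seedlings. FIS2, which in Arabidopsis silences genes of the endosperm, was counted 83 and 67 times in WT meiocytes, 4.92 and 3.20 CPM, and 23 and 17 times in WT seedlings, 0.668 and 0.634 CPM. All 10 meiocyte libraries (1.97 to 7.49 CPM, median 3.95) lay above all 10 seedling libraries (0.112 to 1.13 CPM, median 0.404). The WT difference was 2.30 ± 0.52 on the log2 scale, 4.93-fold higher (adjusted p = 7.6e-04, edgeR), and it stayed called without any 1 library. An opposite-strand gene, AT2G35680, shares 44 bases, 1.68% of the FIS2 exons, and the library kit does not mark strand.

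EMF2 (AT5G51230, chromosome 5 from 20823644 to 20829644 on the plus strand), the subunit of the vegetative complex, was not called between the WT tissues. Meiocytes of WT had 42.6 and 36.5 CPM and seedlings of WT 28.6 and 28.6 CPM, so both WT meiocyte libraries lay above both WT seedling libraries, and over all genotypes the 2 ranges overlapped, 23.8 to 42.6 against 24.6 to 35.6 CPM. A log2 difference of 0.15 ± 0.19 between WT tissues missed the threshold (adjusted p = 0.48, edgeR), with an approximate 95% interval of -0.23 to 0.53. With an offset for gene length it was 0.71 and called (adjusted p = 0.00269, edgeR), on a scale where the median of all features moved from -0.20 to 0.26. In the triple mutant EMF2 was lower in meiocytes (log2 -0.75 ± 0.20, adjusted p = 0.00252, edgeR), which is given for the fit reported only.

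VRN2 (AT4G16845, chromosome 4 from 9476069 to 9479878 on the plus strand), the subunit that acts in vernalization, did not differ between the WT tissues beyond the spread (log2 -0.23 ± 0.23, adjusted p = 0.365, edgeR), at 19.9 and 13.9 CPM in meiocytes and 15.5 and 16.1 CPM in seedlings. In all 4 mutants it was lower in meiocytes, by log2 -0.57 ± 0.23 in pol2a-1 (adjusted p = 0.0345, edgeR) to -1.14 ± 0.23 in suvh2suvh9 (adjusted p = 2.8e-04, edgeR). In suvh2suvh9 its 2 meiocyte libraries were at 10.9 and 13.1 CPM and its 2 seedling libraries at 20.1 and 21.8 CPM. Whether these differences depend on the genotype was tested as an interaction, and no mutant passed (log2 -0.34 to -0.91, lowest adjusted p = 0.253, edgeR). The differences of VRN2 within mutants are given for the fit reported only. With the length offset its WT difference turned to log2 0.49, on a scale where the median of all features was 0.26.

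FIE, the WD40 protein that is the single Arabidopsis ESC homologue, was the 1 member called lower in WT meiocytes. WT meiocytes had 6.05 and 6.69 CPM where WT seedlings had 17.7 and 18.8 CPM. All 10 meiocyte libraries (5.21 to 11.4 CPM, median 6.52) lay under all 10 seedling libraries (17.7 to 22.4 CPM, median 19.9). The WT difference was -1.82 ± 0.27 on the log2 scale, 3.53-fold lower (adjusted p = 1.3e-05, edgeR), and -1.54 to -2.12 within the mutants. It stayed called without any 1 library and with the length offset, at log2 -1.16. Exons of opposite-strand neighbours cover 5.89% of the FIE exons, and the library kit does not mark strand.

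MSI1 (AT5G58230, chromosome 5 from 23556012 to 23558245 on the plus strand), the WD40 histone binding protein that also serves in the chromatin assembly complex CAF-1, was not called between the WT tissues. WT meiocytes had 34.3 and 25.8 CPM and WT seedlings 24.4 and 29.4 CPM (log2 -0.16 ± 0.19, adjusted p = 0.466, edgeR; approximate 95% interval -0.53 to 0.22). In the fit reported MSI1 was called lower in meiocytes within suvh2suvh9 (log2 -0.55 ± 0.19, adjusted p = 0.0161, edgeR). The same held within the triple mutant (log2 -0.66 ± 0.19, adjusted p = 0.00548, edgeR), but not within pol2a-1 or pol2a-2 (log2 -0.02 and -0.16). LHP1 (AT5G17690, chromosome 5 from 5827142 to 5829763 on the minus strand), the reader of the mark, had 21.2 and 15.9 CPM in WT meiocytes against 13.8 and 13.4 CPM in WT seedlings (log2 0.12 ± 0.24, adjusted p = 0.65, edgeR; interval -0.35 to 0.60). The libraries of both genes overlapped between tissues, and the direction of the differences of EMF2, VRN2, MSI1 and LHP1 turned under some scalings. With the length offset MSI1 was at log2 0.52 and LHP1 at 0.83, and both were called (adjusted p = 0.0208 and 0.00455, edgeR). That offset also moved the median of all features from -0.20 to 0.26, so these shifts are not those of gene length alone.

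**Figure D1:**
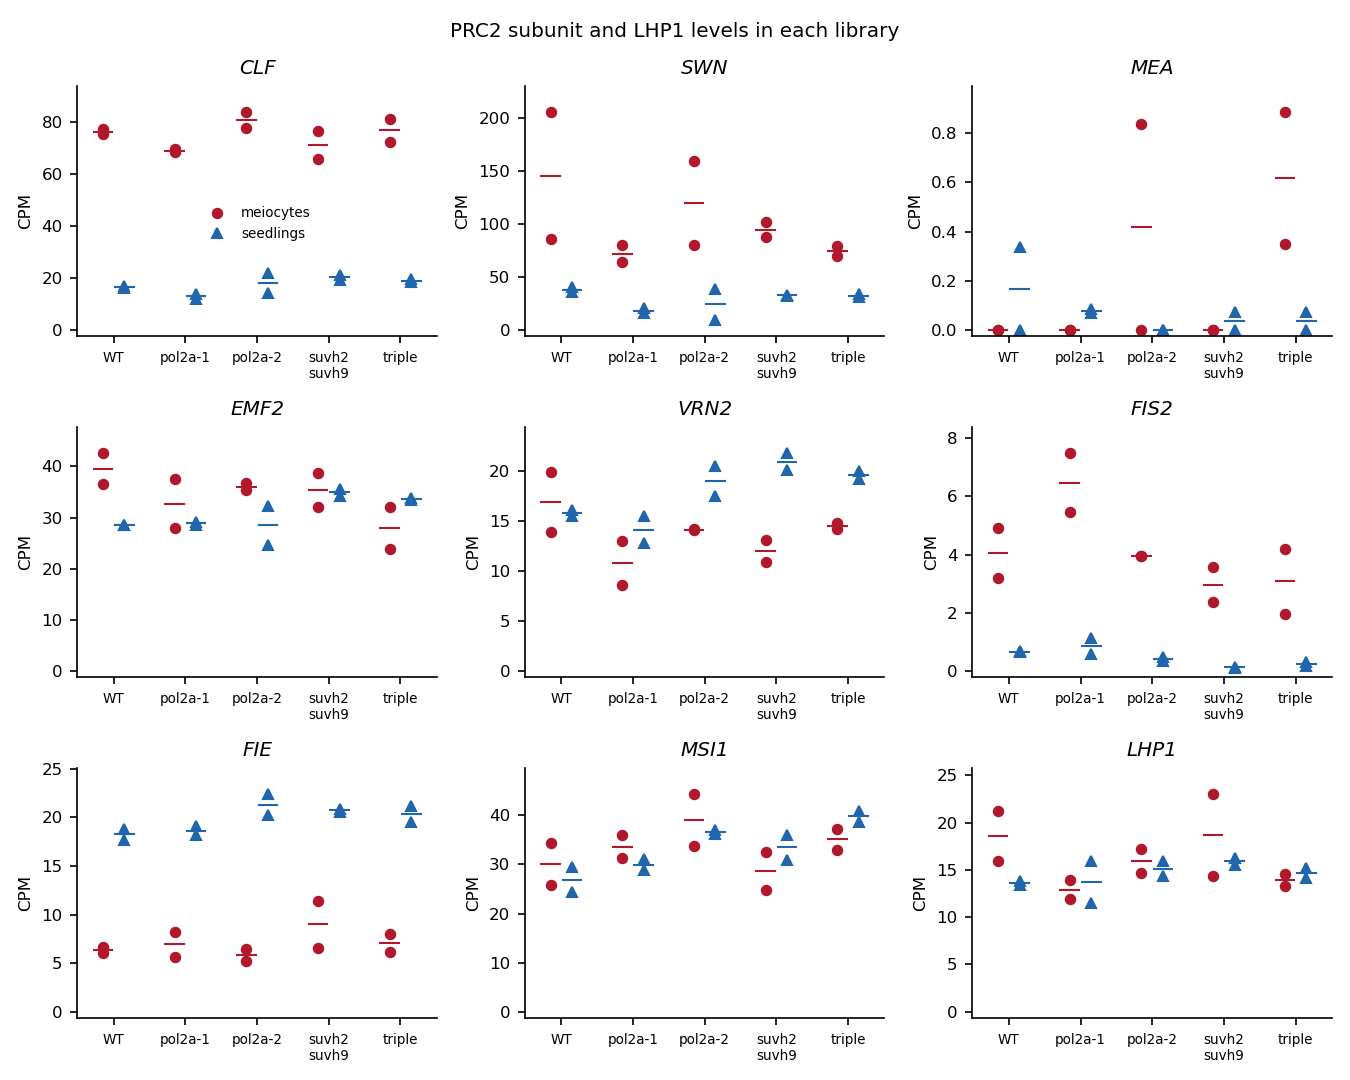
Levels of the 9 members in each library, in CPM on a linear axis of its own per gene, by genotype (triple is pol2a-1suvh2suvh9). Circles are meiocyte libraries, triangles are seedling libraries and short lines are means of 2. CLF, SWN and FIS2 lie higher and FIE lower in meiocytes with no overlap of libraries, and MEA stays under 1 CPM.

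In all, 4 of the 9 members (44.4%) were called between WT meiocytes and WT seedlings, 3 higher and 1 lower. Of 24418 features 76.8% were called (35.2% higher, 41.7% lower), so members were not called more often than other features. Whether their lower share differs from that of all features was not tested. Changes as high as that of CLF were found in 23.1% of 22150 genes in this fit, as high as that of SWN in 26.9%, as high as that of FIS2 in 18.7%, and as low as that of FIE in 35.8%. The median change of all features was -0.20. Within the mutants 5 members were called in pol2a-1 (75.4% of all features), 5 in pol2a-2 (75%), 6 in suvh2suvh9 (75.6%) and 6 in the triple mutant (75.5%), and the 5 comparisons of tissues share 1 fit. Seedlings are a mixture of organs, and the part of leaf tissue in these differences was not tested.

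**Figure D2:**
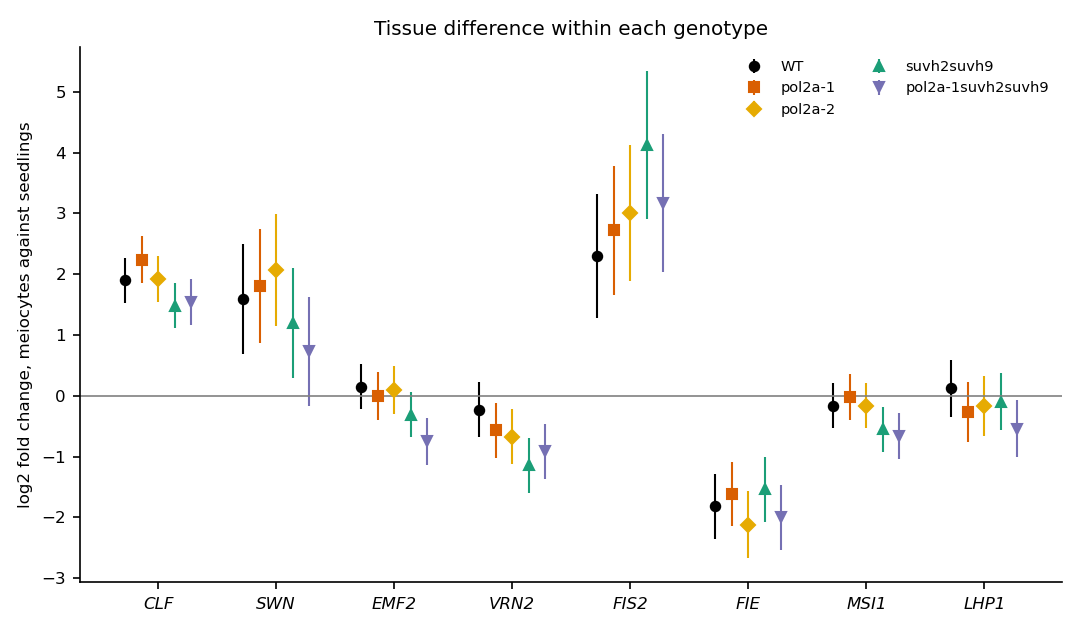
Difference between meiocytes and seedlings within each genotype for the 8 members other than MEA, as the log2 fold change on the vertical axis. Points are estimates and bars span the approximate 95% interval. FIS2, CLF and SWN lie above 0 and FIE below 0 in every genotype, and only SWN in the triple mutant has a bar that reaches 0 among these 4.

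The shares of FIE and FIS2 in the summed RNA level of their subunit families differed between the tissues without overlap. FIE and MSI1 are parts of the same complex, so their shares describe RNA levels and not the make-up of PRC2. Levels were compared between genes per kb of exon (CPM per kb), with the exon lengths deposited beside the counts. FIE took a median of 17.5% of the summed level of FIE and MSI1 in meiocytes (13.2 to 26.6%) and 39.2% in seedlings (34.4 to 43.0%), with no overlap. FIS2 took 6.79% of the zinc finger family in meiocytes (4.41 to 16.3%) and 0.756% in seedlings (0.180 to 2.46%). VRN2 took 32.2% in meiocytes (24.9 to 44.0%) and 43.3% in seedlings (37.1 to 53.0%), which overlap. EMF2 took 60.5% in meiocytes (51.6 to 64.8%) and 56.1% in seedlings (46.4 to 60.4%), which overlap too.

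The ratio of EMF2 to VRN2 counts within a library does not depend on scaling between libraries, though it can carry a trend with gene length. Its log2 was 1.34 ± 0.29 in meiocytes and 0.79 ± 0.23 in seedlings (SD, n = 10 libraries each), a difference of 0.54 (p = 3.8e-04, two-sided permutation test with 100000 resamples). In WT alone the difference was 0.39 and was not tested. The permutation tests of this paragraph pooled all genotypes and counted libraries of the same genotype as independent. Their p-values therefore describe the pooled libraries and not a difference within a genotype. The log2 ratio of CLF to SWN was -0.35 ± 0.53 in meiocytes and -0.66 ± 0.51 in seedlings, a difference of 0.31 that did not pass the test (p = 0.194, two-sided permutation test). Without replicate 1 of the pol2a-2 seedlings, the library with the lowest SWN level, it was 0.45 (p = 0.0382, permutation test).

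Per kb, the order of the medians in meiocytes was SWN (24.5 CPM per kb), CLF (21.6), MSI1 (20.5), EMF2 (13.3), LHP1 (7.21), VRN2 (7.09), FIE (4.17), FIS2 (1.51) and MEA (0). Ranges of neighbours overlapped down to FIE, with SWN above CLF in 7 of 10 libraries, and FIE, FIS2 and MEA did not overlap. In seedlings the order was MSI1 (20.6 CPM per kb), FIE (12.7), EMF2 (11.4), SWN (9.60), VRN2 (9.29), LHP1 (7.25), CLF (5.03), FIS2 (0.154) and MEA (0.0137). There MSI1 stood clear of FIE, CLF stood clear of FIS2, and the ranges of the other neighbours overlapped. CLF was thus 2nd of 9 in meiocytes and 7th of 9 in seedlings, and FIE was 7th and 2nd.

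In meiocytes no member passed the test in any mutant. None of 36 tests of a member in a mutant against WT was called, where 0.339% of all tests over the 4 comparisons were called (0.646% of features in pol2a-1, 0.646% in pol2a-2, 0.00471% in suvh2suvh9, 0.0613% in the triple mutant). The 36 tests include MEA, whose tests in pol2a-1 and suvh2suvh9 set 0 counts against 0 and could not be called. At an unadjusted p under 0.05 there were 3, and DESeq2's Wald test called 0. Counts at an unadjusted p, here and below, lack the share of all features at that threshold and show no excess. The 4 comparisons share the WT libraries. SWN was at 80.1 and 64.2 CPM in pol2a-1 (log2 -0.99 ± 0.38, adjusted p = 0.371, edgeR) and at 79.3 and 69.8 CPM in the triple mutant (log2 -1.09 ± 0.38, adjusted p = 0.243, edgeR), against 206 and 86.0 CPM in WT. All 4 values lie under both WT values, and the distance rests largely on WT replicate 1: without it the log2 differences were -0.26 and -0.36. EMF2 was at 23.8 and 32.1 CPM in the triple mutant (log2 -0.63 ± 0.24, adjusted p = 0.265, edgeR), also under both WT libraries.

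CLF showed the narrowest interval of the members in meiocytes. The libraries of pol2a-1 had 69.6 and 68.2 CPM, those of pol2a-2 had 83.7 and 77.7, those of suvh2suvh9 had 76.4 and 65.5 and those of the triple mutant had 72.4 and 81.0, against 77.1 and 75.1 in WT. The log2 differences were -0.13 to 0.01 with a standard error of 0.18. FIS2 was at 7.49 and 5.45 CPM in pol2a-1, above both WT libraries, and at 1.97 and 4.19 in the triple mutant, and neither passed the test (log2 0.70 ± 0.48 and -0.52 ± 0.49, adjusted p = 0.616 and 0.626, edgeR). FIE was highest in 1 suvh2suvh9 library, at 6.58 and 11.4 CPM (log2 0.49 ± 0.38).

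In seedlings 2 of 32 tests were called, 6.25%, where 6.71% of all tests over the 4 comparisons were called. By mutant the called features were 0.0269% (pol2a-1), 2.62% (pol2a-2), 10.9% (suvh2suvh9) and 13.3% (triple mutant). At an unadjusted p under 0.05 there were 6. These comparisons also share their WT libraries. MSI1 rose in the triple mutant, and FIS2 fell in suvh2suvh9. Both calls are in the 4 libraries with 0.0215 to 0.0443% chloroplast RNA, against 2.11 to 2.21% in WT, and both stayed called with organellar genes left out. MSI1 was at 40.9 and 38.7 CPM in the triple mutant against 24.4 and 29.4 CPM in WT, above both WT libraries (log2 0.59 ± 0.15, adjusted p = 0.0275, edgeR). The call was lost without either WT library (log2 0.45 and 0.74, adjusted p = 0.215 and 0.0544, edgeR) and without either triple mutant library (log2 0.55 and 0.64, adjusted p = 0.16 and 0.0952, edgeR), and with all 20 libraries in 1 fit (log2 0.61, adjusted p = 0.11, edgeR). MSI1 was at 37.0 and 36.1 CPM in pol2a-2 (log2 0.36 ± 0.15, adjusted p = 0.195, edgeR), at 30.9 and 36.0 in suvh2suvh9 and at 28.8 and 31.1 in pol2a-1. An opposite-strand gene, AT5G58240, shares 132 bases, 8.12% of the MSI1 exons.

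FIS2 in suvh2suvh9 seedlings rested on few counts. It had 4 and 3 counts, 0.147 and 0.112 CPM, against 23 and 17 counts in WT (log2 -2.28 ± 0.63, adjusted p = 0.0467, edgeR). The call was lost without any 1 of the 10 seedling libraries (adjusted p = 0.0531 to 0.285, edgeR) and under 5 of 9 other settings (0.0765 to 0.0946 where lost, no filter and DESeq2 among them). In the triple mutant FIS2 had 5 and 7 counts (log2 -1.40 ± 0.59, adjusted p = 0.15, edgeR), in pol2a-2 5 and 11, and in pol2a-1 17 and 7. In CPM the libraries of suvh2suvh9, the triple mutant and pol2a-2 lay under both WT libraries, and those of pol2a-1 lay on either side of them.

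SWN was low in the pol2a seedlings without passing the test with all libraries of the tissue and the filter on low counts. It was at 21.0 and 15.5 CPM in pol2a-1 (log2 -1.03 ± 0.45, adjusted p = 0.322, edgeR) and at 9.49 and 38.9 CPM in pol2a-2 (log2 -0.74 ± 0.44, adjusted p = 0.36, edgeR), against 40.3 and 35.9 CPM in WT. It was at 33.2 and 32.1 CPM in suvh2suvh9 and at 30.7 and 33.9 CPM in the triple mutant, so the values of the triple mutant stood nearer to those of WT than to those of pol2a-1. Without either pol2a-2 library, the difference of pol2a-1 from WT kept its size (log2 -1.04 and -1.03) and passed the test (adjusted p = 0.0178 and 0.0164, edgeR). It also passed with no filter (log2 -1.05, adjusted p = 8.5e-06, edgeR), where SWN in pol2a-2 was called too, and with the pol2a-1 and WT libraries alone in the fit (log2 -1.03, adjusted p = 0.00475, edgeR). SWN is a long transcript, 3403 bases of exon, and gene length moved with these comparisons: the median change was -0.37 over genes of 3000 bases or more and 0.22 over genes under 1000 bases in pol2a-1 seedlings, and -0.29 and 0.13 in pol2a-2 seedlings. With an offset for length the change of SWN in pol2a-1 was -0.75, and the part of length in it was not tested further.

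The other members did not pass the test in seedlings. CLF was at 13.9 and 11.9 CPM in pol2a-1, under both WT libraries at 16.0 and 16.9, and at 19.3 and 21.1 in suvh2suvh9, above both (log2 -0.32 ± 0.18 and 0.30 ± 0.18, adjusted p = 0.402 and 0.317, edgeR). VRN2 was at 20.1 and 21.8 CPM in suvh2suvh9 and at 20.0 and 19.2 in the triple mutant, above the WT libraries at 15.5 and 16.1 (log2 0.41 ± 0.16 and 0.33 ± 0.16, adjusted p = 0.129 and 0.2, edgeR). EMF2 was at 35.6 and 34.2 CPM in suvh2suvh9 and at 33.4 and 33.8 in the triple mutant, above the WT value of 28.6 (log2 0.29 ± 0.14 and 0.25 ± 0.14, adjusted p = 0.215 and 0.26, edgeR). FIE stayed between 17.7 and 22.4 CPM and LHP1 between 11.5 and 16.3 CPM in all 10 seedling libraries, and their largest log2 differences from WT were 0.19 ± 0.13 and 0.23 ± 0.16, in suvh2suvh9.

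**Figure D3:**
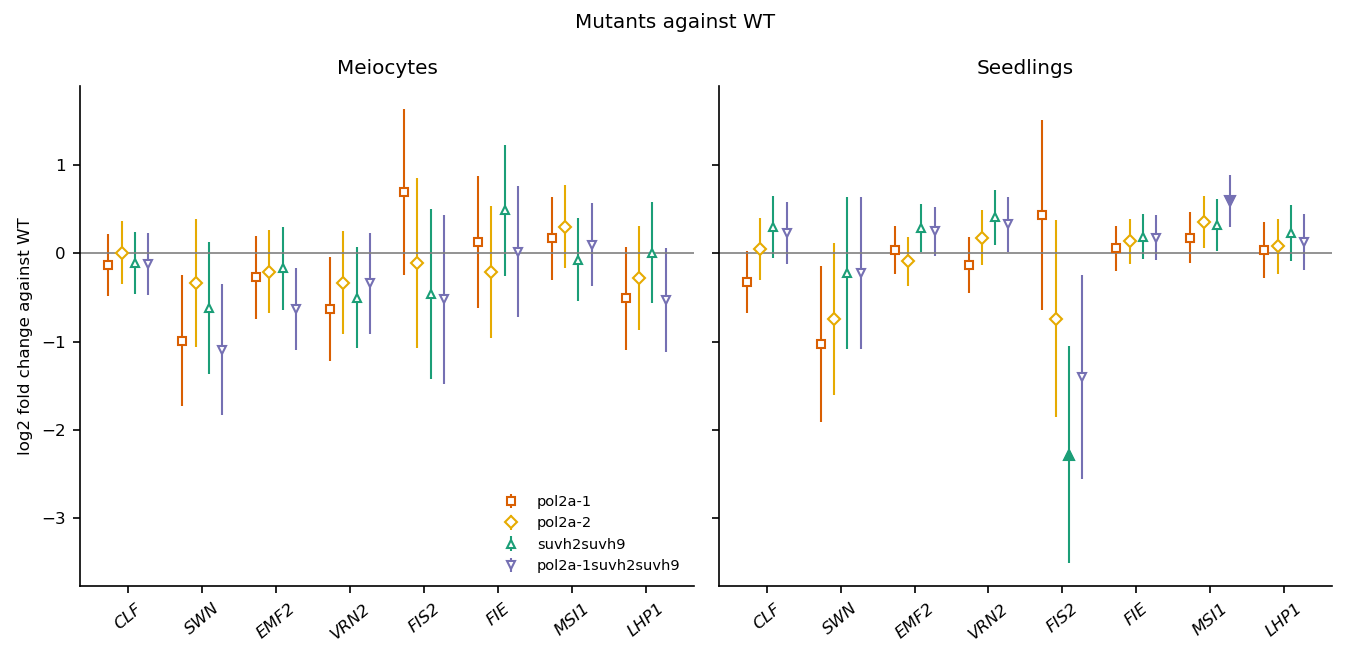
Log2 fold change of 8 members in each mutant against WT in meiocytes (left) and seedlings (right). Bars span the approximate 95% interval, filled symbols passed the test (adjusted p under 0.05) and open symbols did not. The filled symbols are MSI1 in the triple mutant and FIS2 in suvh2suvh9, both in seedlings.

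Between mutants none of 51 tests was called, where 2.15% of all tests over the 6 comparisons were called (in meiocytes and seedlings 0.514% and 0.386% for pol2a-2 against pol2a-1, 0.712% and 10.7% for the triple mutant against pol2a-1, 0.0377% and 0.247% for it against suvh2suvh9), and DESeq2's Wald test called 0. The 51 tests include MEA in meiocytes, which was counted in few libraries. At an unadjusted p under 0.05 there were 5, of which 4 were seedling differences of the triple mutant from pol2a-1. CLF was 18.5 and 19.4 CPM in the triple mutant against 13.9 and 11.9 in pol2a-1 (log2 0.55 ± 0.18, adjusted p = 0.0842, edgeR). FIS2 (log2 -1.84 ± 0.61, adjusted p = 0.0825), VRN2 (log2 0.46 ± 0.16, adjusted p = 0.0934) and MSI1 (log2 0.40 ± 0.15, adjusted p = 0.109) were near the threshold in edgeR's test too. The spread of the pol2a-2 libraries enters this fit: without pol2a-2 replicate 1, CLF, SWN, VRN2 and MSI1 passed the test in this comparison, and so did CLF and SWN in pol2a-2 against pol2a-1, while FIS2 did not pass with any of the 10 libraries left out (lowest adjusted p = 0.0835, edgeR). Between pol2a-2 and pol2a-1, with all libraries and MEA left aside, the log2 differences ran from -0.81 to 0.66 in meiocytes and from -1.18 to 0.37 in seedlings.

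The effect of a mutation was tested for a difference between tissues in each member. None of 36 interaction tests was called, where 1.55% of all were called (0.508% in pol2a-1, 1.02% in pol2a-2, 0.926% in suvh2suvh9, 3.73% in the triple mutant), with 6 at an unadjusted p under 0.05. EMF2 came nearest. Its change in the triple mutant was -0.63 in meiocytes and 0.25 in seedlings, a difference of -0.90 ± 0.27 (adjusted p = 0.0785, edgeR), and DESeq2's Wald test called it.

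Genes that act beside the core complex were read from lists of 37 genes. Between the WT tissues 28 were called, 19 higher and 9 lower in meiocytes, where 76.8% of all features were called. Among 6 genes of PRC1 and EMF1, 3 were higher and 2 lower: BMI1A, a PRC1 RING finger protein, was at 70.3 to 73.3 CPM in meiocytes and 7.16 to 9.49 in seedlings (log2 2.80 ± 0.33), and EMF1, a silencing protein that works with PRC1, at 3.63 to 6.58 and 19.1 to 20.7 (log2 -2.29 ± 0.34). DRIP1 was lower (log2 -4.06 ± 0.51) and AT3G23060 higher (log2 6.64 ± 0.88). Adjusted p values of these 4 were 1.1e-05 or lower in edgeR.

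Among 14 accessory and recruiting proteins, 5 were higher and 5 lower. VEL2, of the VEL family of PRC2 accessory proteins, was at 54.2 to 74.4 CPM in WT meiocytes and 1.23 to 1.94 in WT seedlings (log2 5.00 ± 0.37), and VRN5 of the same family was higher too (log2 1.60 ± 0.24). VAL2, a B3 domain protein that recruits PRC2 (log2 -2.75 ± 0.29), and BPC1, a GAGA motif binding protein (log2 -3.92 ± 0.56), were lower. Among 10 demethylases, readers and trithorax genes 6 were higher and 2 lower. The H3K27 demethylase JMJ30 was at 96.6 to 105 CPM in WT meiocytes and 1.54 to 1.71 in WT seedlings (log2 5.64 ± 0.29), AT5G46910 (log2 3.38 ± 0.19) and JMJ32 (log2 3.02 ± 0.31) were higher, and the chromatin remodeller PKL was lower (log2 -2.50 ± 0.34).

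MSI1 was set beside 7 relatives and partners that work outside PRC2, of which 5 were higher and none lower in WT meiocytes, where 35.2% of all features were higher and 41.7% lower. MSI2 was at 331 to 334 CPM in meiocytes and 17.4 to 22.1 in seedlings (log2 3.77 ± 0.17). MSI3 (log2 3.76 ± 0.23) and the CAF-1 subunits FAS1 (log2 3.03 ± 0.27) and FAS2 (log2 4.07 ± 0.24) were higher as well, with adjusted p of 3.6e-08 or lower in edgeR. MSI1 is the third CAF-1 subunit, and its own difference was -0.16 ± 0.19, or 0.52 and called with the length offset (adjusted p = 0.0208, edgeR). The offset also moved the median of all features from -0.20 to 0.26. Within suvh2suvh9 and the triple mutant MSI1 was called lower in meiocytes (log2 -0.55 and -0.66).

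In the mutants few of these 37 genes were called. In meiocytes 0 of 36 tested were called in each of the 4 comparisons with WT, where 0.00471 to 0.646% of all features were called, with 1 to 6 per mutant at an unadjusted p under 0.05. Across the other settings tried, DESeq2 included, 0 to 1 were called in each. In seedlings 0 of 36 were called in pol2a-1 and pol2a-2 (7 and 5 at an unadjusted p under 0.05), 1 in suvh2suvh9 and 3 in the triple mutant, where 0.0269%, 2.62%, 10.9% and 13.3% of all features were called. Across the other settings with all libraries, 0 to 7, 0 to 3, 0 to 2 and 0 to 5 of these genes were called. BPC1 rose in suvh2suvh9, from 14.4 to 15.0 CPM in WT to 27.5 to 27.7 CPM (log2 0.91 ± 0.14, adjusted p = 0.00322, edgeR), the 1 gene called there. In the triple mutant BPC1 rose to 20.0 to 21.6 CPM (log2 0.52 ± 0.14, adjusted p = 0.0332), AZF1, a zinc finger protein, fell from 0.932 to 1.54 to 0.216 to 0.261 CPM (log2 -2.34 ± 0.60, adjusted p = 0.0316), and AT5G24500 fell by 0.46 ± 0.13 (adjusted p = 0.05 after rounding, edgeR). BPC1 in suvh2suvh9 stayed called without any 1 library (log2 0.89 to 0.93), but not with all 20 libraries in 1 fit (log2 0.94, adjusted p = 0.424, edgeR), where the 3 calls of the triple mutant were lost too. Those 3 calls were also lost without either WT library, either suvh2suvh9 library or either triple mutant library, with log2 differences of 0.48 to 0.58 for BPC1, -2.64 to -1.93 for AZF1 and -0.47 to -0.43 for AT5G24500 over the 10 libraries left out in turn. AT5G24500 also lost its call without pol2a-1 replicate 1. Leaving out 1 library called up to 3 of the 36 in pol2a-1 and up to 8 in pol2a-2.

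Known target genes of PRC2 in Arabidopsis were read from a list of 22. Only 11 were kept in the meiocyte fit and 17 in the seedling fit. In meiocytes none was called in a mutant. In the order pol2a-1, pol2a-2, suvh2suvh9, triple mutant, the median log2 changes were 0.51, 0.95, 0.47 and 1.32, against 0.00 to 0.04 over all features. At an unadjusted p under 0.05 there were 2, 2, 2 and 5 genes, without the share of all features at that threshold to set beside them. DESeq2 and the other settings called 0 to 2. The 11 genes tested are those that had counts in at least 1 group, so their median is no test. Tapetum markers summed to 116 to 149 CPM in WT and to 136 to 182, 170 to 296, 185 to 342 and 243 to 285 CPM in the same order of mutants. They lay above both WT libraries in all mutants but pol2a-1, whose range overlapped that of WT. Leaf photosynthesis markers summed to 185 to 409 CPM in WT and to 372 to 377, 494 to 520, 331 to 401 and 567 to 962 CPM. Their sums in pol2a-1 and suvh2suvh9 lay within the WT range, and those in pol2a-2 and the triple mutant lay above it. The median log2 changes were 0.47, 0.70, 0.43 and 1.24 over 8 genes, none called, with 7 of 8 at an unadjusted p under 0.05 in the triple mutant. The part of either marker list in the target medians was not tested.

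Between WT tissues 14 of 17 targets were called, 5 higher and 9 lower in meiocytes, where 76.8% of all features were called (35.2% higher, 41.7% lower). The meristem genes STM and KNAT1 had 0 counts in WT meiocytes and 6.32 and 4.93 CPM in WT seedlings, so with 3 counts over both libraries as the floor their level was at least 79.6-fold and at least 62.1-fold lower in meiocytes. The flowering repressor MAF5 was at 0.0955 to 0.296 CPM in meiocytes and 10.1 to 11.4 in seedlings (log2 -6.11 ± 0.86). PI, a petal and stamen identity gene, was higher, at 13.7 to 22.5 against 1.19 to 1.68 CPM (log2 3.33 ± 0.41).

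In seedlings the same list moved in both directions. None of 17 was called in pol2a-1 (9 at an unadjusted p under 0.05; DESeq2 and the other settings called 0 to 4), 4 were called in pol2a-2, 2 higher and 2 lower, 8 in suvh2suvh9, 2 higher and 6 lower, and 6 in the triple mutant, 3 higher and 3 lower. The shares of all features called in these 4 comparisons were 0.0269%, 2.62%, 10.9% and 13.3%. These are shares at the adjusted threshold, so the 9 targets at an unadjusted p in pol2a-1 cannot be set against them. In suvh2suvh9 and the triple mutant the changes of targets are also those of the libraries with little chloroplast RNA (0.0215 to 0.0443%), and the part of that difference in them was not tested. In pol2a-2, SEP3, a floral organ identity gene, rose from 1.57 to 2.65 CPM in WT to 10.6 to 14.9 (log2 2.52 ± 0.28, adjusted p = 0.00276, edgeR), and FT, the mobile flowering signal, to 1.02 to 2.58 (log2 2.28 ± 0.49, adjusted p = 0.0432). FLC, the flowering repressor silenced by PRC2 after cold, fell from 4.29 to 5.40 CPM to 0.478 to 0.635 (log2 -3.17 ± 0.43, adjusted p = 0.00664), and its relative MAF4 fell too (log2 -2.13 ± 0.38, adjusted p = 0.0232). SEP3 stayed called without any 1 library. FLC lost its call without WT replicate 1 (log2 -3.00, adjusted p = 0.0765), and MAF4 without either WT library or pol2a-2 replicate 1 (log2 -2.17 to -1.96 in these 3). FT lost it without either WT library, pol2a-2 replicate 2, or either library of suvh2suvh9 or the triple mutant, with log2 differences of 1.49 to 2.73 over all 10, and with the pol2a-2 and WT libraries alone in the fit (adjusted p = 0.183, edgeR).

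In suvh2suvh9 seedlings AG, the stamen and carpel identity gene, fell from 1.22 to 1.42 CPM to 0.0734 to 0.150 CPM, 2 and 4 counts (log2 -3.50 ± 0.48, adjusted p = 0.00207, edgeR). MAF5 (log2 -4.36 ± 0.62) and MAF4 (log2 -2.69 ± 0.39) fell as well, and KNAT1 rose from 4.47 to 5.28 CPM to 10.7 to 13.2 (log2 1.29 ± 0.20, adjusted p = 0.00383). In the triple mutant FT rose from 0.298 to 0.406 CPM to 11.3 to 11.5 (log2 5.00 ± 0.47, adjusted p = 2.1e-04), KNAT1 to 13.5 to 15.8 (log2 1.61 ± 0.20) and SEP3 to 6.75 to 7.11 (log2 1.75 ± 0.28), and MAF5 fell to 0.974 to 1.65 (log2 -3.03 ± 0.56). The calls named here held without any 1 library, except MAF5 in the triple mutant, which lost its call without WT replicate 1 (log2 -2.94, adjusted p = 0.0576) or triple mutant replicate 1 (log2 -2.68, adjusted p = 0.0852, edgeR). With all 20 libraries in 1 fit, calls were lost at nearly the same log2 differences by KNAT1 in suvh2suvh9 and the triple mutant (adjusted p = 0.335 and 0.168, edgeR), by MAF4 in suvh2suvh9 (0.237), and by FT, FLC and MAF4 in pol2a-2 (0.272, 0.126 and 0.449). In the same comparisons with WT, 1 member was called in suvh2suvh9 and 1 in the triple mutant. Meiocyte markers summed to 68.2 to 71.5 CPM in pol2a-2 seedlings and to 41.0 to 47.2 CPM in those of the other genotypes, and their part in the floral genes was not tested.

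**Figure D4:**
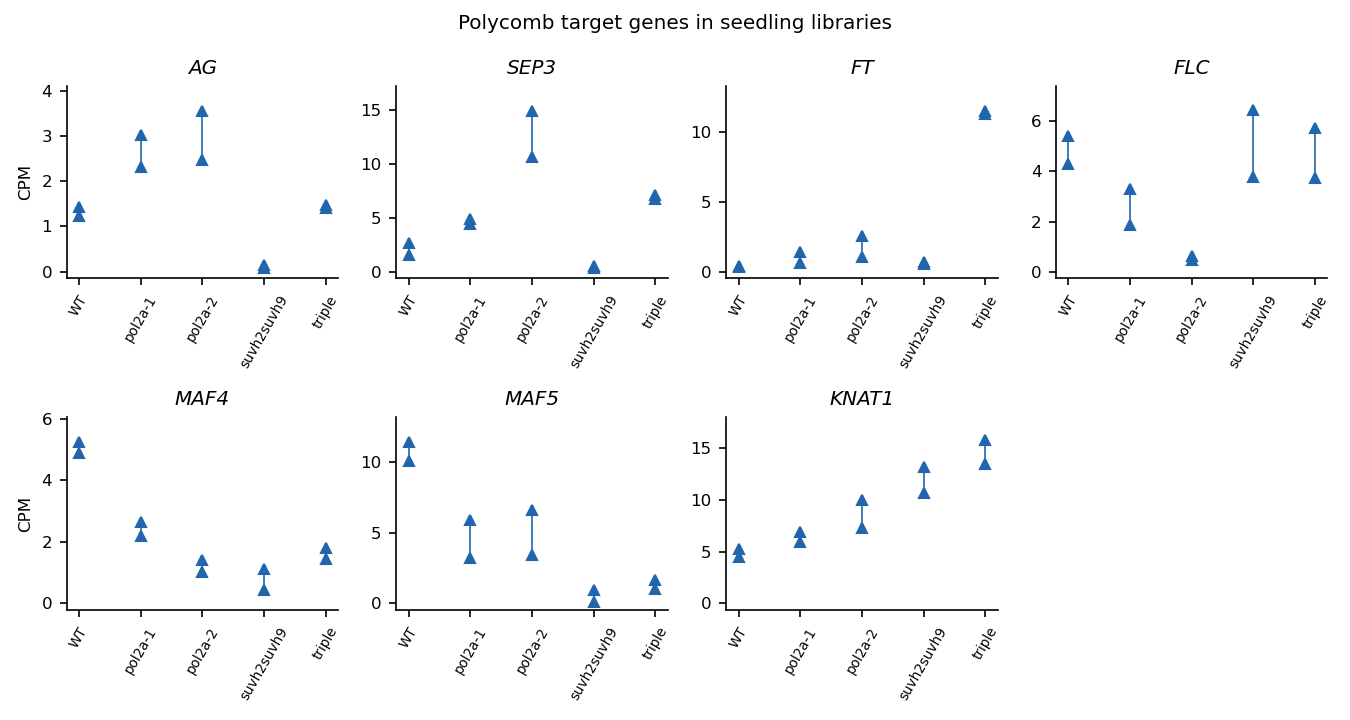
Levels in the seedling libraries, in CPM on a linear axis of its own per gene, of the 7 PRC2 target genes named for a seedling mutant. Triangles are libraries, joined by a line within a group (triple is pol2a-1suvh2suvh9). SEP3 is highest in pol2a-2 at 10.6 to 14.9 CPM, FT in the triple mutant at 11.3 to 11.5, and FLC is lowest in pol2a-2 at 0.478 to 0.635.

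Genes with the pattern most like each member were found by the root mean square (RMS) difference in log2 CPM over the 10 group means, each gene centred on its own mean, among 14790 nuclear genes of at least 5 CPM. CLF was nearest to DL1, TOR1 and CSTF64 (RMS 0.09 to 0.10), and FIE to CER10, BSK7 and AT5G17530 (0.10 to 0.11). SWN was nearest to RRC1, AT1G20970 and PRP39-2 (0.14 to 0.17), and VRN2 to AT1G56590, AT5G22760 and PPOX (0.16). MSI1 was nearest to AT2G37190, AT1G09590 and AT1G09150 (0.10 to 0.11). For FIS2 the nearest were TPS14, AT5G39520 and AT1G75335, at 0.32 to 0.35.

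EMF2 was nearest to AT3G53390, AT1G22200 and ECT6 (0.09 to 0.10) and LHP1 to LUT1, AT2G30740 and AT1G73020 (0.10 to 0.11). EMF2 and LHP1 were each other's nearest member, at an RMS of 0.12, with LHP1 11th of 14790 genes from EMF2 and EMF2 10th from LHP1. CLF and SWN, the catalytic pair, were 0.37 apart, where the median gene was 1.05 from either. SWN was only 2112th of 14790 genes from CLF, and CLF 469th from SWN. All these distances rest on the same 20 libraries.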

How the data were processed

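RNA-seq counts of 58844 features, of which 27445 are nuclear genes and 31189 transposable elements, were analysed in 20 libraries. The deposited values are raw read counts, 1 table per library; per the submitters' processing notes, the tools were featureCounts 2.0.0, STAR 2.7.9a, cutadapt 3.4 and DESeq2 1.30.1, with TAIR10. The sources used here do not give the settings for strand, multiply mapped reads or overlapping genes. Coordinates, start regions and gene names are from RefSeq's TAIR10.1 annotation, and 27269 of 27444 genes had the same exon length there as in the deposited tables.

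CPM were counts per 1e6 of all counts in a library, and CPM per kb divided them by the deposited feature length. The main test was edgeR 4.0.16's quasi-likelihood F test (R 4.3.3, limma 3.58.1), two-sided, with TMM scaling, filterByExpr (minimum count 10) and Benjamini-Hochberg adjustment over all features kept; a feature was called at an adjusted p under 0.05. Mutants were compared within a tissue over 10 libraries (21214 features in meiocytes, 22297 in seedlings), and tissues and interactions over all 20 (24418 features). Standard errors were worked out from the log2 fold change and the F statistic of the fit, and approximate 95% intervals span 1.96 standard errors. The intervals leave out the few degrees of freedom and are too narrow. Some exclude 0 where the test does not pass even unadjusted, such as VRN2 in triple mutant seedlings (0.02 to 0.64, unadjusted p = 0.0615, edgeR). Counts at an unadjusted p under 0.05 are given without the share of all features at that threshold, so they do not show an excess. The code was tried on simulated counts for pol2a-1 against WT in meiocytes, with large changes and a smaller spread than in these libraries. That trial does not show how well small changes are detected. Alternatives were DESeq2 1.42.0's Wald test, DESeq2 size factors, no filter, a replicate block, organellar genes left out, an offset for gene length, the pol2a alleles joined, other sets of libraries in the fit, and each library left out in turn.

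The members and lists were chosen with earlier results of these data known. At most 4 called genes per list and comparison, those of smallest adjusted p, are named. RefSeq gives no symbol for AT3G23060, AT5G24500 and AT5G46910, and lists LHP1 as TFL2. Replicates of a group differed beyond counting noise (chi-square per degree of freedom 8.78 to 49.6), so none was counted as a repeat of another. The labels do not say whether replicates came from separate growths, so p-values measure the spread between these libraries, which may be technical. Counting floors cover counting error only. Python 3.11.15 with numpy 2.4.6, scipy 1.17.1 and pandas 2.3.3 was used for the rest.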

Additional observations from a re-analysis of the deposited data

Results flagged for a closer look

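None of the 9 members met a rule for a closer look, and 8 results for target genes did, each because its change from WT differed between the tissues in an interaction test over all features (edgeR's quasi-likelihood test, Benjamini-Hochberg adjusted p). In suvh2suvh9 the change in meiocytes minus that in seedlings was 3.53 ± 0.61 for SEP3 (log2 1.25 against -2.27, adjusted p = 0.00826), 3.96 ± 0.67 for AG (0.47 against -3.50, adjusted p = 0.00728) and 5.47 ± 1.19 for MAF5 (1.11 against -4.36, adjusted p = 0.0404). It was 4.71 ± 0.70 for AP3 (0.96 against -3.77, adjusted p = 0.00231) and 5.53 ± 0.84 for PI (0.47 against -5.07, adjusted p = 0.00275), the petal and stamen identity genes.

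In the triple mutant the difference was 4.73 ± 0.70 for AP3 (1.08 against -3.68, adjusted p = 0.00125), 5.61 ± 1.10 for MAF5 (2.58 against -3.03, adjusted p = 0.00984) and 5.33 ± 1.25 for STM (adjusted p = 0.0334). STM had 0 counts in WT meiocytes and 0.236 to 0.406 CPM in those of the triple mutant, and changed by 0.10 in seedlings, so its fitted difference is no bound on a fold. AP3 and PI were near the floor in suvh2suvh9 seedlings, at 0.0367 to 0.187 and 0 to 0.0734 CPM, against 1.04 to 2.16 and 1.19 to 1.68 CPM in WT seedlings. None of the meiocyte changes passed the test by itself.

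With each of 20 libraries left out in turn, AP3 and PI stayed called in all 20 fits. MAF5 in suvh2suvh9 stayed called in 10 (log2 4.64 to 7.63, adjusted p up to 0.204) and was lost with the pol2a alleles joined (adjusted p = 0.117). The 10 libraries were both of WT in each tissue, both seedling libraries of pol2a-1 and of the triple mutant, meiocyte replicate 2 of suvh2suvh9 and its seedling replicate 1. STM stayed called in 11 (log2 4.88 to 5.70, adjusted p up to 0.097), and was lost without either WT library of a tissue, either seedling library of suvh2suvh9 or the triple mutant, or meiocyte replicate 1 of the triple mutant. SEP3 was lost without WT seedling replicate 2 or suvh2suvh9 seedling replicate 1 (log2 3.14 and 3.26), AG without the latter (log2 3.57), and MAF5 in the triple mutant without its seedling replicate 1 (log2 5.30). The suvh2suvh9 and triple mutant seedlings are those with 0.0215 to 0.0443% chloroplast RNA, and the part of that in these differences was not tested.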

How the results depend on the processing

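With 2 libraries a group, small changes of the members were not detectable at this depth and spread, and MEA and the seedling values of FIS2 rest on few counts. Between WT tissues 4 members were called under every setting but the length offset, which called 7, and the omission of WT meiocyte replicate 1, which called 3. The median of all features, -0.20 as reported, was -0.33 with DESeq2 size factors, 0.26 with the length offset and 0.00 with no filter. The 3 calls gained with the length offset were EMF2 (0.71), MSI1 (0.52) and LHP1 (0.83), and FIE moved from -1.82 to -1.16 there. Directions turned for members that are not called in the fit reported: VRN2 to 0.49 and MSI1 to 0.52 with the length offset, EMF2 to -0.00 with no filter, and LHP1 to -0.01 with DESeq2 size factors and with DESeq2's Wald test, to -0.03 with no filter, and to between -0.01 and 0.24 with 1 library left out. The cause was not tested.

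Against WT in meiocytes, no filter called 2 (SWN in pol2a-1 and in the triple mutant), and no other setting called any. In seedlings the 2 calls became 1 (MSI1) with DESeq2's Wald test and with the pol2a alleles joined, 3 with no filter (SWN in pol2a-1 and pol2a-2 and MSI1, without FIS2), 4 with the 2 compared groups alone (SWN in pol2a-1 and VRN2 in suvh2suvh9 gained), 0 with all 20 libraries in 1 fit, and 0 to 3 with 1 library left out. Between mutants no filter called 2, the length offset 1, the 2 compared groups alone 2, and leaving out 1 library 0 to 6, the 6 without pol2a-2 seedling replicate 1. DESeq2's Wald test and the length offset each called 1 interaction, EMF2 in the triple mutant. The difference in the log2 CLF to SWN ratio was 0.24 to 0.45 with 1 library left out and 0.40 in WT alone, and that of EMF2 to VRN2 was 0.48 to 0.62 and 0.39.

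Replicate numbers did not pair the libraries: the correlation of same-numbered deviations was over 0.1 in 1 of 10 pairs of groups in meiocytes and in 2 of 10 in seedlings. A replicate block left 4 members called between WT tissues, 0 in meiocyte mutants, 1 (MSI1) in seedling mutants, 0 between mutants and 0 interactions, and gave p = 0.0859 for the CLF to SWN ratio (0.31) and p = 0.00391 for the EMF2 to VRN2 ratio (0.54) in sign-flip permutation tests. The sign-flip tests paired libraries by genotype and replicate number, and they too pooled all genotypes. Of the values for single genes under other settings, 1727 kept direction and side of the threshold, 114 lost a call, 19 gained one and 7 turned.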
